A study of Mus musculus with 2 samples.

Results

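The 7 genes for the subunits of AMP-activated protein kinase (AMP kinase) and 2 genes for kinases that activate it, Stk11 and Camkk2, were followed in mouse hindlimb skeletal muscle with and without overexpression of syntaxin 4. Members were the probe sets whose platform annotation names one of these 9 genes. Each gene had 1 probe set, and no further probe set named a member together with another gene. They are 9 of 19938 named genes on the array. RNA came from male C57BL/6J mice on standard chow, with 1 array for wild-type mice and 1 for mice carrying a Syn4 transgene (overexpression). The age of the mice, the promoter that drives the transgene, the number of founder lines and any pooling of animals are not stated in the labels.

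AMP kinase senses falling cellular energy. A catalytic alpha subunit, a scaffolding beta subunit that binds glycogen and a gamma subunit that binds AMP, ADP and ATP form the complex, and LKB1 (gene Stk11) or the calcium-dependent kinase CaMKK2 (gene Camkk2) phosphorylates the activation loop of alpha. Once active in muscle, the kinase favours glucose uptake and fatty acid oxidation and restrains energy-consuming synthesis. The isoforms differ in where they are found: alpha 2 (Prkaa2), beta 2 (Prkab2) and gamma 3 (Prkag3) are the forms typical of skeletal muscle, with gamma 3 known from fast glycolytic fibres, whereas alpha 1 (Prkaa1), beta 1 (Prkab1) and gamma 1 (Prkag1) are made in most tissues. Gamma 2 (Prkag2) is broadly made and prominent in heart, and was put in neither class.

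All values are the deposited RMA log2 intensities, and each difference is transgenic minus wild type. With 1 array per genotype there is no replicate, so no difference could be set against the spread between mice and no test was made. A 1.5-fold difference, 0.58 on the log2 scale, served as the rule of size. It was counted among the 9974 genes that reached 6.79 in at least 1 array, the midpoint of the genes when each is ranked by its brighter array (the level filter). In that set 265 genes, 2.66%, were at least 1.5-fold higher in the transgenic array and 171, or 1.71%, at least 1.5-fold lower; at 2-fold the shares were 0.862% and 0.381%. When quantile normalization was repeated the 1.5-fold counts were 233 and 211. With both arrays required to reach the level they were 201 and 142, and without the filter 350 and 238. The transgene check gene Stx4a (syntaxin 4) read 8.84 in wild type and 12.20 with the transgene. In bulk muscle, more RNA per cell and more cells of a type cannot be told apart. Levels of different genes come from different probes and are not compared with each other below.

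Prkag3 was the 1 member that passed the rule of size, and the 3 muscle-type subunits did not share a direction. The gene for gamma 3 was 1.71-fold higher in the transgenic array, while the genes for alpha 2 and beta 2 were slightly lower. Among the ubiquitous subunits, alpha 1 was higher and beta 1 and gamma 1 slightly lower, all within 1.5-fold. Both upstream kinases were near equal in the arrays. Of the 9 members 8 passed the level filter, and 1 of those 8 was higher by the rule of size against the background of 2.66%, while none was lower (background 1.71%) and none reached 2-fold (0.862% higher, 0.381% lower). With so few members these shares say nothing about the family.

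The gamma 3 and gamma 1 genes show the contrast, and their promoters (250 bases before to 50 after the annotated start, RefSeq, build GRCm38.p6) are printed here to show how the start regions of these paralogues differ. The Prkag3 window is chr1:74748906-74749205 on the minus strand, and the Prkag1 window is chr15:98831459-98831758 on the minus strand. Capitals mark CAGCTG, an E-box of the kind that myogenic basic helix-loop-helix factors bind, which was searched for after the sequence had been read.
Prkag3: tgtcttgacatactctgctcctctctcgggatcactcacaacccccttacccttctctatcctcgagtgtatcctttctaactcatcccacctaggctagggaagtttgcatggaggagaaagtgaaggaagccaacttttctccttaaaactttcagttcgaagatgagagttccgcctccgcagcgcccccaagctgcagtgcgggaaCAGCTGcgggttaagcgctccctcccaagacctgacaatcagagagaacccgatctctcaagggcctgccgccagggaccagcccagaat
Prkag1: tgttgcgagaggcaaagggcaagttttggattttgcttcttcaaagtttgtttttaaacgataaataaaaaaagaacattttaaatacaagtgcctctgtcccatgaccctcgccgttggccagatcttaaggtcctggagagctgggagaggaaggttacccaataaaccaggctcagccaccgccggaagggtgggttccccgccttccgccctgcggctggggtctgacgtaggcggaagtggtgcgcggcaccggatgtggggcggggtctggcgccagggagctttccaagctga

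All 9 members had a promoter entry, 11 windows in all because Prkag2 has 3 annotated starts. CAGCTG, which reads the same on both strands, occurred in the Prkag3 window alone of these 11, with its first base 40 bases before the start. It occurs in 16.3% of all 32851 windows of this length, so a match is common. The broader E-box CANNTG, which contains CAGCTG, is in 72.3% of all windows, and was found once in the Prkag3 window and once in the Prkag1 window. The GC box GGGCGG, searched on both strands, is in 35.7% of all windows and had 2 matches in the Prkag1 window and none in that of Prkag3. None of the 11 windows held TATAAA, present in 13.6% of all windows on either strand, while CCAAT, in 37.4% of all windows, was present in the Prkag1 but not the Prkag3 window. The Prkag3 window held 11 CpG dinucleotides against a median of 7 over all windows. The other muscle-type subunits had CpG-rich starts, with 35 CpGs in the Prkaa2 and 23 in the Prkab2 window. The ubiquitous subunits had 52 (Prkaa1), 30 (Prkab1) and 16 (Prkag1). A match is a description of letters, and no binding was measured.

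Of the catalytic subunits, alpha 1 was higher in the transgenic array and alpha 2 was near equal. Prkaa1, which encodes alpha 1, read 9.41 in wild type and 9.80 with the transgene, a difference of 0.39 or 1.31-fold. The transgenic value was the higher one, short of the rule of size, and 7.14% of the genes past the level filter had a difference at least as high. Prkaa2, which encodes alpha 2, read 12.46 in wild type and 12.36 with the transgene, a difference of -0.10. Of the genes past the filter, 66.3% differed by at least this much in either direction, so this difference was smaller than that of most genes. Set against each other, the difference of Prkaa2 minus that of Prkaa1 was -0.49, which means that the ratio of alpha 2 to alpha 1 signal was 1.40-fold lower in the transgenic array.

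Both beta subunit genes were slightly lower in the transgenic array, by close to the same amount. Prkab1, for the ubiquitous beta 1, read 8.70 in wild type and 8.59 with the transgene, a difference of -0.11. Prkab2, for the muscle-type beta 2, was at 11.10 and 10.92, a difference of -0.18 or 1.13-fold lower. Of the genes past the filter, 43.0% differed by at least the size seen for Prkab2. The difference of Prkab2 minus that of Prkab1 was -0.07.

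The nucleotide-binding gamma subunits held the widest contrast. Prkag3, for gamma 3, read 11.16 in wild type and 11.93 with the transgene, a difference of 0.77. Of the 9974 genes past the level filter, 144 (1.44%), Prkag3 included, had a difference this high or higher. Prkag1, for the ubiquitous gamma 1, read 11.41 in wild type and 11.28 with the transgene, a difference of -0.13. Prkag2, for gamma 2, was at 8.08 and 8.35, a difference of 0.27 or 1.21-fold higher, and 14.9% of genes past the filter had a difference at least as high. The difference of Prkag3 minus that of Prkag1 was 0.90, so the ratio of gamma 3 to gamma 1 signal was 1.87-fold higher in the transgenic array. Against Prkag2 the contrast was 0.50, or 1.41-fold.

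**Figure D1:**
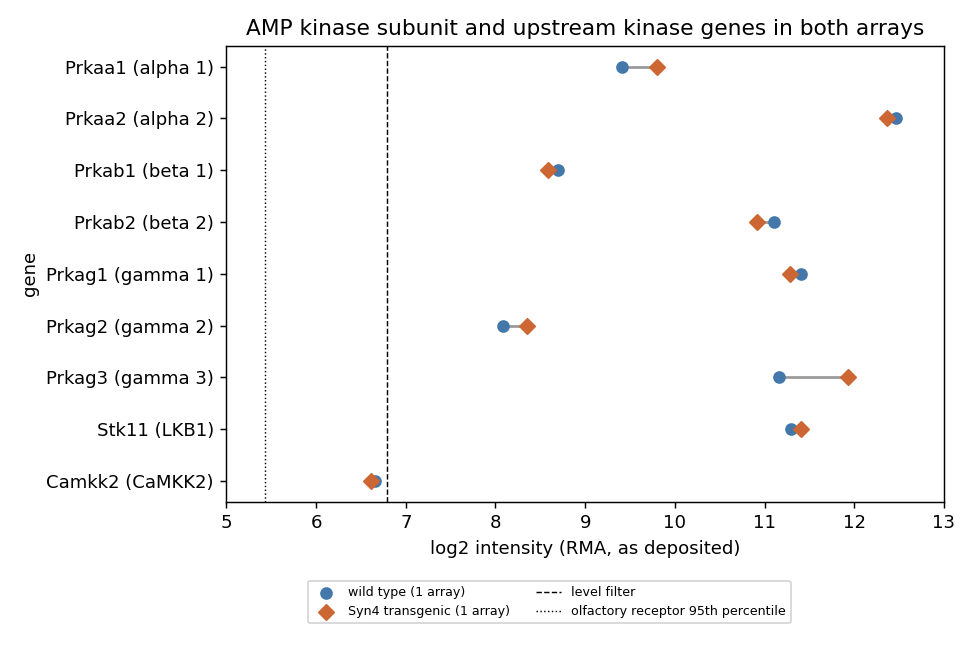
The plot shows the log2 intensity (horizontal axis) of each AMP kinase subunit and upstream kinase gene (vertical axis) in the wild-type array (circles) and the Syn4 transgenic array (diamonds), 1 array each, with the level filter of 6.79 dashed and the olfactory receptor 95th percentile of 5.43 dotted. The gap is widest for Prkag3 (11.16 and 11.93); horizontal positions of different genes are not comparable because each has its own probes.

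Over the 3 subunit pairs, the muscle-type minus ubiquitous contrast was therefore -0.49 for alpha, -0.07 for beta and 0.90 for gamma. The muscle-type class spanned -0.18 to 0.77 (median -0.10) and the ubiquitous class -0.13 to 0.39 (median -0.11). In each class 1 gene was above 0 and 2 were below. The median difference of the genes past the filter was 0.03. The bar chart of differences shows the classes interleaved and no common direction by tissue distribution.

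**Figure D2:**
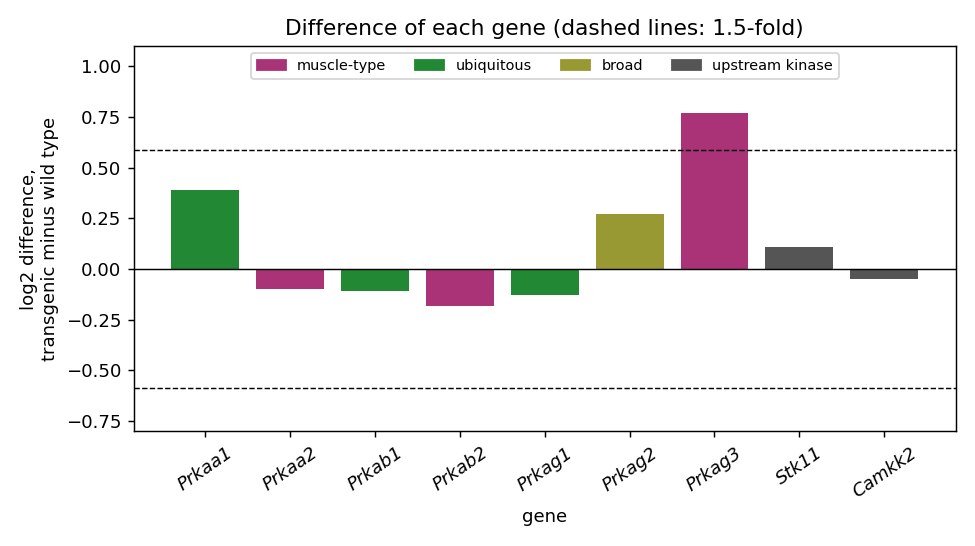
Bars give the log2 difference, transgenic minus wild type, of each gene, coloured by class, with dashed lines at 1.5-fold (0.58). Prkag3 (0.77) is the bar beyond the line, Prkaa1 (0.39) and Prkag2 (0.27) follow, and the remaining bars lie between -0.18 and 0.11; there are no error bars because each genotype has 1 array.

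The upstream kinases were measured at near equal levels. Stk11, for LKB1, read 11.30 in wild type and 11.41 with the transgene, a difference of 0.11. Camkk2 was at 6.66 and 6.61, a difference of -0.05. Camkk2 was under the level filter, though above 5.43, the 95th percentile of 1015 olfactory receptor genes, which muscle is not known to use. LKB1 works in a complex with a STRAD pseudokinase and an MO25 scaffold, and all 4 genes for these partners were measured. Strada (8.95 and 9.13, a difference of 0.18) and Cab39, for MO25 alpha (11.55 and 11.61, 0.06), were above 0, whereas Stradb (11.41 and 11.36, -0.05) and Cab39l, for MO25 beta (9.51 and 9.30, -0.21), were below.

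**Figure D3:**
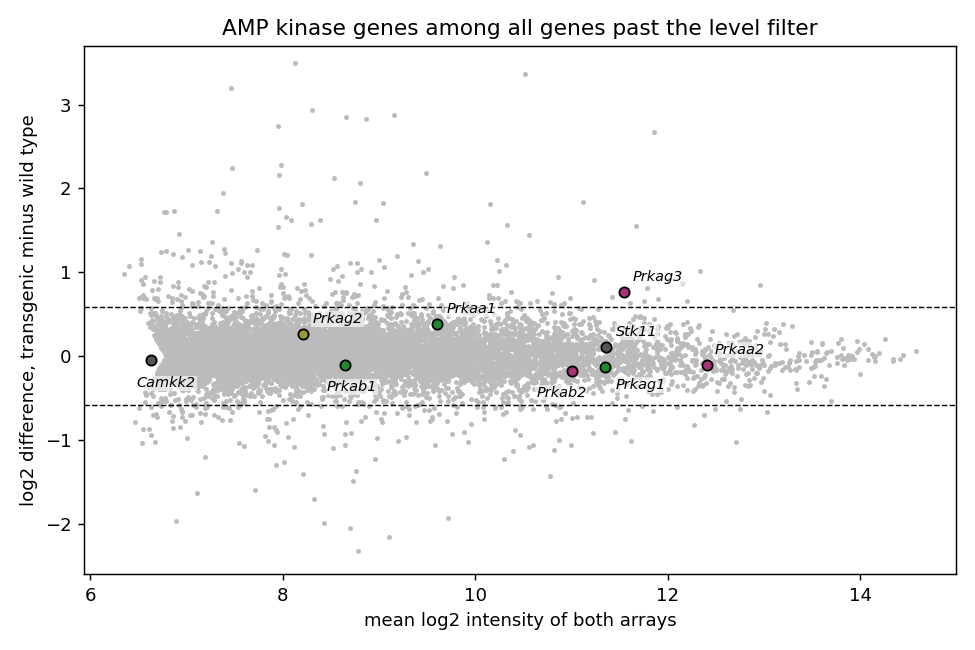
Each grey point is a gene past the level filter, at its mean log2 intensity of both arrays (horizontal axis) and its log2 difference, transgenic minus wild type (vertical axis), with the AMP kinase genes outlined and named and dashed lines at 1.5-fold. Prkag3 (0.77) lies above the upper line, and the other members lie inside the band, with Camkk2 at its dim end.

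The signal of genes beside Prkag3 on chromosome 1 did not share its difference. On one side Cyp27a1, a sterol hydroxylase, read 10.62 in wild type and 10.80 with the transgene (0.18), and Ttll4, a tubulin glutamylase, read 8.47 and 8.55 (0.08). On the other side the Wnt ligand genes Wnt6 (6.45 and 5.86, -0.59) and Wnt10a (6.82 and 6.62, -0.20) were lower, and Wnt6 was under the level filter.

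Fibre type and cell type markers also differed between the arrays. All 10 slow fibre markers were lower in the transgenic array, 8 of them by at least 1.5-fold, with a median difference of -0.74. Their mean log2 level was 11.8 in wild type and 11.1 with the transgene. Among all genes past the level filter, 44.2% were below 0 and 1.71% at least 1.5-fold lower. The 12 fast fibre markers, from fibres in which gamma 3 is typically found, had a median of 0.01, with none past 1.5-fold, and mean levels of 13.8 and 13.9. They ran from Myoz1 at -0.24 to Myh1, a fast myosin heavy chain, at 0.36. These markers are bright, from 13.11 (Myh1) to 14.36 (Atp2a1) in wild type. Whether such bright probe sets can still register a gain was not tested. White adipocyte markers were above 0 in 8 of 9 measured cases, with 7 past 1.5-fold and a median of 1.15. Their mean levels were 8.11 and 9.43. Among all genes past the filter, 53.5% were above 0 and 2.66% at least 1.5-fold higher. Of the 7, Lep (5.86 and 9.06), Pck1 (6.59 and 7.71) and Slc7a10 (6.12 and 6.98) reached the filter in the transgenic array only. Over the adipocyte markers at or above the level in both arrays, the median was 1.385. The part of the fibre type and adipocyte marker shifts in the Prkag3 and Prkaa1 differences was not tested.

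By their medians, the other cell types moved less than the slow fibre and white adipocyte markers. All 8 fibroblast markers were above 0 (median 0.21, 2 past 1.5-fold, mean levels 9.57 and 9.90). So were all 6 measured Schwann cell markers (median 0.35, 1 past 1.5-fold, mean levels 7.27 and 7.68). The Schwann cell markers S100b and Mag were under the level filter. Egr2, the one past 1.5-fold (5.86 and 6.94), reached the filter in the transgenic array only, and so did Sox10 (6.77 and 6.86). Among all genes past the filter, 53.5% were above 0 and 2.66% at least 1.5-fold higher. Of 6 smooth muscle markers 5 were above 0 (median 0.28, 1 past 1.5-fold, mean levels 9.32 and 9.63). The gene past 1.5-fold, Cnn1 (6.47 and 7.35), also reached the filter in the transgenic array only. None of the 7 endothelial (median 0.00), 7 macrophage (0.09) or 2 measured red blood cell markers (0.09) passed 1.5-fold.

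**Figure D4:**
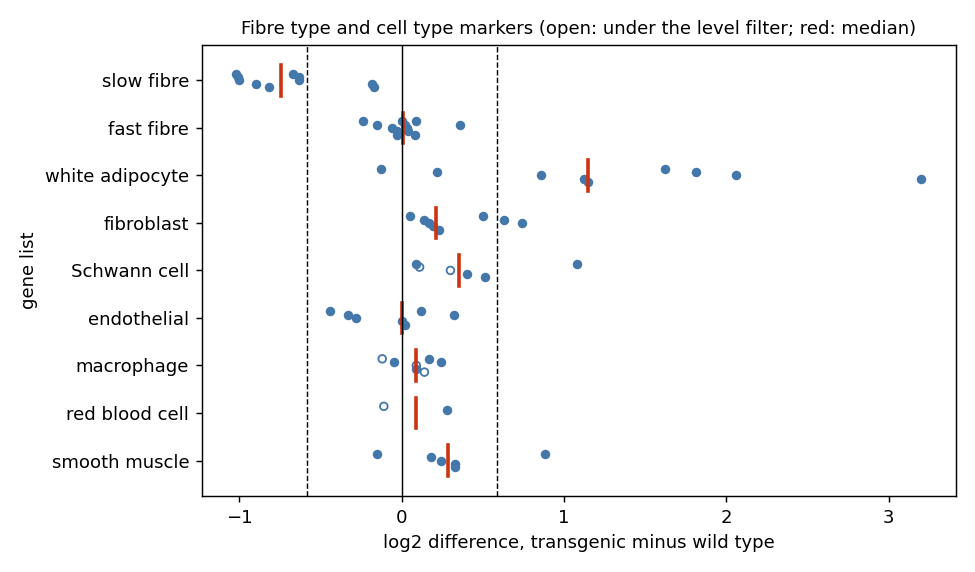
Each point is a marker gene's log2 difference, transgenic minus wild type, in rows by fibre or cell type, with red bars at the medians, open points for genes under the level filter and dashed lines at 1.5-fold. Slow fibre markers lie to the left (median -0.74), fast fibre markers around 0 (0.01) and white adipocyte markers to the right (1.15).

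Around the kinase, 97 genes of 7 lists were measured, of which 90 passed the level filter. By the rule of size 2 of these 90 were higher (2.22%, against 2.66% of all genes past the filter) and 3 were lower (3.33%, against 1.71%). The 2 higher ones were Hdac4 and Sik1, and the 3 lower ones Pfkfb3, Nt5c1a and Lpl. Among all genes past the filter 53.5% were above 0 and 44.2% below, with a median of 0.03, and among all genes 46.9% were above 0 and 49.6% below, with a median of 0.00. The counts above and below 0 in the lists that follow are to be read against these shares. The members of each list were chosen from general knowledge of the pathway, with earlier results of these data known. Some stand in more than 1 list.

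Genes whose products act on AMP kinase stayed within 1.5-fold. Of 13 measured regulators (other kinases, sestrins, the folliculin complex and phosphatases), 9 were above 0 and 3 below, with a median of 0.05. Sesn3, a stress-induced sestrin linked to AMP kinase activity, was highest at 0.55 (8.82 and 9.37), and Fnip1, a folliculin partner that binds AMP kinase, was lowest at -0.33 (10.38 and 10.05). The kinases related to AMP kinase that LKB1 also activates, 12 genes, had a median of 0.06, with 8 above 0. Sik1, a salt-inducible kinase that restrains CREB coactivators, was 1.55-fold higher (8.46 and 9.09, a difference of 0.63). When quantile normalization was repeated Sik1 was at 0.58, just short of the rule of size, which is 0.585 when less rounded. Mark1, a microtubule affinity-regulating kinase, was lowest at -0.14.

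Transcripts of AMP kinase substrates went both ways. Of 22 measured, 13 were above 0 and 9 below, close to the 53.5% above 0 among all genes past the filter, with a median of 0.11, and 1 passed the rule of size in each direction. Hdac4, a class IIa histone deacetylase whose phosphorylation by AMP kinase keeps it out of the nucleus, read 9.37 in wild type and 10.18 with the transgene, a difference of 0.81. Its dimmer probe set gave 0.73. Pfkfb3, which makes the activator of phosphofructokinase, was at 11.13 and 10.07, 2.08-fold lower (-1.06). Tbc1d1 and Tbc1d4, paralogous Rab GTPase-activating proteins of GLUT4 traffic, differed in opposite directions, by 0.49 and -0.46; they were named after their values were seen.

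Among enzymes that set the AMP level and those of glycogen, which the beta subunit binds, more genes were below 0 than above, by small amounts. Of 17 measured adenine nucleotide and phosphocreatine genes 13 were below 0 (44.2% of all genes past the filter were), with a median of -0.08. Nt5c1a, the cytosolic nucleotidase that hydrolyses AMP in muscle, was 1.60-fold lower (9.39 and 8.71, -0.68) and was the lowest of the list. Pnp, a purine nucleoside phosphorylase, was highest at 0.39 but under the level filter (5.38 and 5.77). Of 18 measured glycogen genes 12 were below 0, with a median of -0.15 and none past 1.5-fold. They ran from Gbe1, the branching enzyme, at -0.40 (10.90 and 10.50) to Gsk3b, a kinase of glycogen synthase, at 0.14.

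Transcripts known to increase when AMP kinase is activated in muscle were lower more often than higher. Of 14 measured, 10 were below 0 and 4 above, with a median of -0.17. Lpl, lipoprotein lipase, was lowest and the 1 gene of this list past the rule of size, with 12.40 in wild type and 11.80 with the transgene (-0.60). Trim63, a muscle ubiquitin ligase, was highest at 0.52 (10.72 and 11.24). Across all genes past the filter, 44.2% were below 0. Slow fibre markers were lower in the same array, with 10 of 10 below 0, and their part in these lists was not tested.

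**Figure D5:**
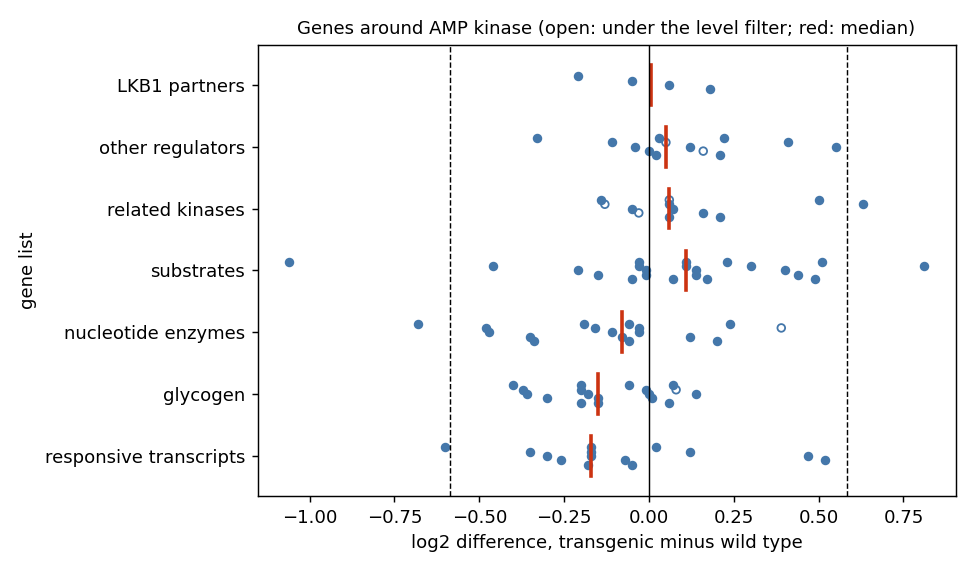
Each point is a gene's log2 difference, transgenic minus wild type, in rows by gene list, with red bars at the list medians, open points for genes under the level filter and dashed lines at 1.5-fold. Medians lie between -0.17 (responsive transcripts) and 0.11 (substrates), and Hdac4 (0.81), Sik1 (0.63), Pfkfb3 (-1.06), Nt5c1a (-0.68) and Lpl (-0.60) are the points beyond the lines.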

How the data were processed

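RNA of hindlimb muscle was measured on 1 array per genotype, so differences have no replicate error and no test was made. The deposited values are log2 intensities of 35556 probe sets, made by the authors with RMA in Partek, per the submitters' processing notes; the version, settings and array build are not given in the sources. Median log2 intensity was 6.06 in both arrays, and RMA compresses large ratios. The number of arrays limits the precision.

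Probe sets with 1 symbol in the platform annotation (21789; 1621 had several and 12146 none) gave 19938 genes, the brightest probe set standing for the 999 genes with more than 1. All 9 members matched RefSeq symbols by Entrez identifier (GRCm38.p6). Differences, counts and list medians were computed in Python 3.11.15 (pandas 2.3.3). The counting code was run on simulated differences placed clear of the 1.5-fold rule, which checks the code and not the rule. Alternatives were 3 rescalings (median centring, loess with span 0.3 in statsmodels 0.14.6, repeated quantile normalization), other probe set rules, level filters, a 2-fold threshold, list means and Prkag2 in the ubiquitous class.

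The members and lists were chosen with earlier results of these data known. By rule the text names all members, pathway list genes past 1.5-fold, the highest and lowest of each pathway list, all LKB1 partners, Stx4a and the neighbours of Prkag3. Tbc1d1 and Tbc1d4 were named outside this rule, after their values were seen, and the marker genes named are also outside it. The rule's genes nearest to Prkag3 in level are left out, since levels of different probes are not comparable.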

Additional observations from a re-analysis of the deposited data

How the results depend on the processing

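Under the loess and repeated quantile rescalings, all 9 member differences kept their sign and moved by at most 0.1 log2 units. Prkag3 was at 0.76 and 0.75. Median centring could not move a member, because both arrays had a median of 6.06. The probe set rules could not either, because each member has 1 probe set. The alpha contrast ran from -0.49 to -0.42, the beta contrast from -0.07 to -0.04 and the gamma contrast from 0.70, with Prkag2 averaged into the ubiquitous class, to 0.91. With quantile normalization repeated, 233 genes were higher and 211 lower, the higher share of these calls went from 60.8% to 52.5%, and the median of genes past the filter from 0.03 to -0.01. At 2-fold, 86 genes were higher and 38 lower, and of the pathway genes 0 were higher and 1 lower. Of the 2 pathway genes that were higher, 1 was left when quantile normalization was repeated (without Sik1) and 1 among genes with 1 probe set only (without Hdac4, which has 2). List medians changed sign in 6 of 144 recomputations, all of them for the LKB1 partner and fast fibre lists, whose medians stayed between -0.05 and 0.03. Some of the 144 repeated the main computation and could not differ. These included median centring and the removal of the level filter, which the main list medians do not use. The probe set rules could not change a list in which each gene has 1 probe set. A level filter could not change a list whose members all passed it. The fibroblast list was at 0.33 as a mean. The Schwann cell list was at 0.46 and the red blood cell list at 0.28 over members at or above the level in both arrays. The same values held over members with the higher value at or above it, an alternative chosen after seeing the data. In the Schwann cell list the rule on both arrays left only Mbp and Pmp22. In the red blood cell list either rule left Alas2 alone, so 0.28 is the value of a single gene. Leaving out a replicate was not possible with 1 array per genotype. No paired analysis was possible because each genotype has 1 array. Camkk2 was above the olfactory receptor percentile but under the level filter.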
